A study of Homo sapiens with 4 samples.

Results

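Lysosomal hydrolases and lysosomal membrane proteins were followed in PANC-1, an established human pancreatic ductal adenocarcinoma line, and in PZT-2, a clone derived from it in which the histone variant H2A.Z was knocked down. The genes were chosen by name and by known function, by a rule that uses no measured value, though with earlier results of these data known. They comprise 33 of the 15221 genes of the transcript table, namely 24 enzymes and enzyme cofactors, 6 proteins of the lysosomal membrane, the pair NPC1 and NPC2 that moves cholesterol out of the lysosome, and the transcription factor TFEB. All 33 were found by symbol, with 74 transcripts, and 6 more transcripts were matched by their RefSeq identifier, 80 in all. All 33 passed the filter of 5 counts in 2 libraries.

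The PANC-1 libraries came from untransduced parental cells (n = 2). The PZT-2 libraries came from a single clone (n = 2) carrying lentiviral short hairpin RNAs, expressed from a U6 promoter and selected with puromycin, 1 against H2A.Z.1 and 1 against both splice forms of H2A.Z.2. Both lines descend from the same cells, but the effects of knockdown, transduction, selection and cloning cannot be told apart, and libraries of cells with a scrambled hairpin are not analysed here. Poly(A)-selected RNA was sequenced and quantified by transcript, and transcripts were summed per gene.

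The libraries held 12860958 to 15717760 estimated counts. H2AFZ, the gene of H2A.Z.1, had normalized counts of 6389 and 6034 in PANC-1 and 2213 and 2259 in PZT-2, a log2 fold change (log2 FC) of -1.47 (SE 0.0565, adjusted p = 6.17e-05, edgeR quasi-likelihood test with Benjamini-Hochberg adjustment over all genes, as for every adjusted p of a gene here). H2AFV, the gene of both H2A.Z.2 isoforms, had a log2 FC of -0.36 (adjusted p = 0.00563). With PZT-2 replicate 1 left out its log2 FC was -0.32, and it did not pass. By its most abundant transcript alone the log2 FC was -0.26 (adjusted p = 0.0686). All 8 ductal epithelial markers were detected, with summed levels of 7370 to 7512 TPM (a level scaled for transcript length and library size) in PANC-1 and 4085 to 4183 TPM in PZT-2, and 5 of the 8 were called lower and 1 higher. Of the markers of leukocytes, which are rich in lysosomal enzymes, 2 of 7 were detected, with summed levels of 0.488 to 0.694 TPM in PANC-1 and 1.74 to 2.75 TPM in PZT-2, and PTPRC, CD163, CSF1R, AIF1 and TYROBP had no value. No acinar or endocrine marker had a value, and the summed fibroblast markers were at 10.7 to 11.9 TPM in PANC-1 and 3.33 to 4.19 TPM in PZT-2. The part of these marker differences in the results below was not tested, and in bulk libraries fewer cells of a type and less RNA per cell cannot be told apart.

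The lysosome is the acidic compartment in which cells take apart glycolipids, glycosaminoglycans, glycogen, glycoproteins and lipids with hydrolases. Most of these enzymes carry mannose 6-phosphate, which sorts them to the lysosome, and loss of a single enzyme or membrane protein leads to a storage disease. TFEB and its relatives bind short palindromic elements in the promoters of many lysosomal genes. Acid β-galactosidase, the product of GLB1, is the enzyme behind the senescence-associated β-galactosidase stain that the study applied to these cells, and the data give the RNA level of that gene and of the enzymes around it.

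Promoter windows with the core of the element bound by TFEB are shown because they are what several of these genes share beyond their function. RefSeq promoters (GRCh38.p14, 250 bases before to 50 bases after a start) were listed for 25 of the 33 genes. The palindrome TCACGTGA, which reads the same on both strands, occurred in the promoters of 5 of these 25 genes, against 1.18% of the 27305 genes with a listed promoter. The shorter CACGTG, which each TCACGTGA contains, occurred in 8 of 25 (32.0%) against 8.77%. The windows below are 30 bases long, read 5′ to 3′ on the strand of the gene, and the capitals mark the palindrome.
GAA (chr17:80101493-80101522, plus strand): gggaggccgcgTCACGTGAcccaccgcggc
GAA (chr17:80101538-80101567, plus strand): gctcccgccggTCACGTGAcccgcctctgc
MCOLN1 (chr19:7522571-7522600, plus strand): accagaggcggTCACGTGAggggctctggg
MCOLN1 (chr19:7522598-7522627, plus strand): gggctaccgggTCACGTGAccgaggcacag
LAMP1 (chr13:113297199-113297228, plus strand): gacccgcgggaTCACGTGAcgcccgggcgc
CLN3 (chr16:28492058-28492087, minus strand): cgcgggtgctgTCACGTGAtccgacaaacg
GALNS (chr16:88857104-88857133, minus strand): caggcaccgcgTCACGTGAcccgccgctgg
A second LAMP1 palindrome lay at position -2 from the start site. Of the 5 genes, GAA was called higher in PZT-2, CLN3 and GALNS were called lower, and LAMP1 and MCOLN1 did not pass the test, with a median log2 FC of -0.26. Of the 20 genes with a listed promoter and no such palindrome, 2 were called higher and 8 lower, with a median of -0.09. A match of letters is a description of the promoter and not evidence of binding.

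The 33 genes did not move in 1 direction. In PZT-2, 4 were called higher (12.1%) and 11 lower (33.3%), and 18 did not pass the test at an adjusted p of 0.05. Over all 15101 genes tested, 14.7% were called higher and 13.7% lower, 28.4% in all, or 2223 and 2064 genes, against 2370 and 1446 with limma-trend on log2(TPM + 1), which split the 33 into 6 higher and 10 lower. Of the 10052 genes whose normalized counts averaged 100 or more, a limit chosen after the values were seen, 19.2% were called higher and 17.7% lower, and of the 32 lysosomal genes above that limit 4 were higher and 10 lower. The median log2 FC of the 33 was -0.07, beside 0.0010 over all genes. PZT-2 was above PANC-1 without overlap for 10 genes and below it without overlap for 15. Over all 15101 genes PZT-2 was above without overlap for 5029 and below for 4977, 66.3% together. The genes called higher were GLB1, GAA, SCARB2 and PSAP, and those called lower were AGA, LIPA, NPC2, IDS, NEU1, CLN3, NPC1, ARSB, LAMP2, TPP1 and GALNS. Leaving out PZT-2 replicate 1 gave 2 higher and 7 lower, and leaving out PZT-2 replicate 2 gave 2 higher and 4 lower. Over all genes the same omissions left 7.58% higher and 6.79% lower, and 6.72% higher and 5.54% lower.

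**Figure D1:**
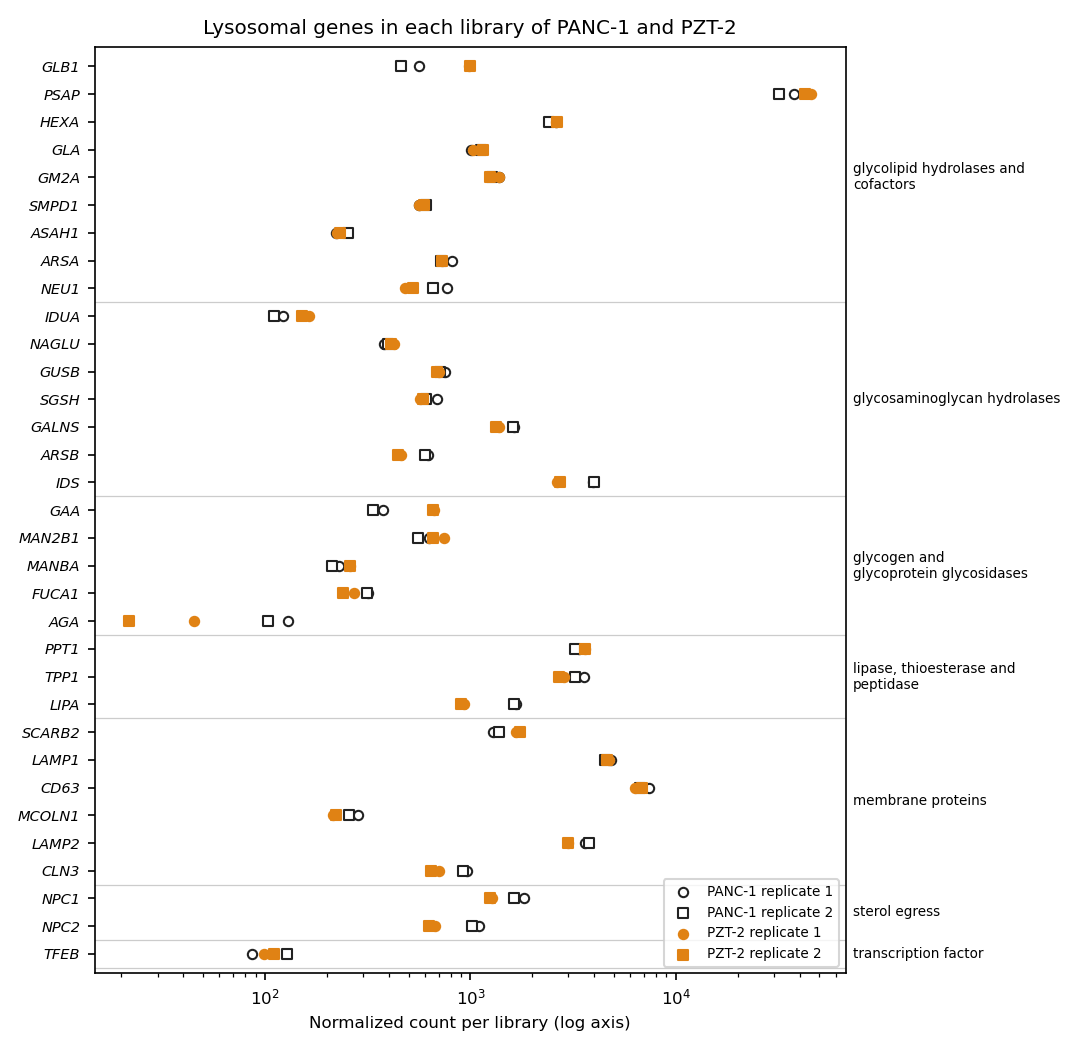
Normalized count of each lysosomal gene (log axis) in each of the 4 libraries, open symbols PANC-1 and filled symbols PZT-2, circles replicate 1 and squares replicate 2, grouped by role. The filled symbols of GLB1 and GAA lie to the right of the open ones and those of AGA, LIPA, NPC2 and IDS to the left, whereas the symbols of LAMP1 and GLA overlap.

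The levels of these genes spanned a wide range. PSAP, the precursor of the saposins that present glycolipids to their hydrolases, had the highest level, 1677 and 1456 TPM in PANC-1 and 2159 and 1999 TPM in PZT-2. The tetraspanin CD63 followed with 1061 ± 53.6 TPM in PANC-1 and 1030.2 ± 52.6 TPM in PZT-2 (SD, n = 2), and LAMP1 with 242 ± 6.12 and 253 ± 5.12 TPM. AGA had the lowest mean level, 8.13 and 6.70 TPM in PANC-1 and 3.01 and 1.44 TPM in PZT-2, and TFEB the next lowest, 4.89 and 7.42 against 5.87 and 6.54 TPM. GLB1 stood at place 19 and GAA at place 24 by mean TPM.

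Of 9 hydrolases and cofactors of glycolipid breakdown, GLB1 and PSAP were called higher, NEU1 was called lower and 6 did not pass. GLB1 had normalized counts of 563 and 461 in the PANC-1 libraries and 979 and 999.7 in the PZT-2 libraries. Both PZT-2 values were well above both PANC-1 values, a 1.94-fold higher mean (log2 FC 0.96, SE 0.103, adjusted p = 0.00146), and the call held under all 15 alternatives. PSAP had 37523 and 31620.1 normalized counts in PANC-1 and 45683 and 42538 in PZT-2. The groups did not overlap (log2 FC 0.35, SE 0.0821, adjusted p = 0.0218), but the adjusted p was 0.124 with PZT-2 replicate 1 left out, 0.0661 with PZT-2 replicate 2 left out and 0.166 by the most abundant transcript alone.

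NEU1, the lysosomal sialidase, moved the other way. It had 767 and 655 normalized counts in PANC-1 and 482 and 528 in PZT-2, with no overlap between the groups (log2 FC -0.49, SE 0.103, adjusted p = 0.0148). Its log2 FC was -0.43 with PZT-2 replicate 1 left out and -0.56 with PZT-2 replicate 2 left out, and it passed in neither fit. NEU1 had only 1 transcript, and in the edgeR fit on the most abundant transcript of every gene its adjusted p was 0.0562. NEU1 and acid β-galactosidase are held in 1 complex by CTSA, the protective protein. CTSA had 2428 and 2342 normalized counts in PANC-1 and 2873 and 2853 in PZT-2, a log2 FC of 0.26 (adjusted p = 0.0146) that became 0.110 with PZT-2 replicate 1 left out and 0.107 with PZT-2 replicate 2 left out. The 3 genes of the complex thus had log2 FCs of 0.96, -0.49 and 0.26.

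The 6 glycolipid genes that did not pass were HEXA, the α subunit of β-hexosaminidase, GLA, the α-galactosidase, ARSA, the sulfatase of sulfatide, SMPD1, the acid sphingomyelinase, ASAH1, the acid ceramidase, and GM2A, the activator of GM2 breakdown. Their log2 FCs ran from -0.07 for ARSA to 0.06 for HEXA, with adjusted p from 0.496 for HEXA to 0.918 for GM2A. HEXA lies on chromosome 15, whose 528 tested genes had a median log2 FC of 0.24, and its change was 0.18 lower than that median.

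GLB1 lies on chromosome 3, whose 833 tested genes had a median log2 FC of 0.43, with 48.5% of them called higher. The 5 tested genes on either side of GLB1 had a median of 0.71, from -0.13 for SUSD5 to 0.92 for CRTAP, and 7 of these 10 were called higher and 0 lower (edgeR, adjusted p under 0.05). The change of GLB1 was 0.53 above the chromosome's median and close to that of CRTAP and CMTM8 (0.91). Whether the chromosome has a part in the level of GLB1 was not tested. TMPPE overlaps GLB1 on the same strand and had means of 25.3 normalized counts in PANC-1 and 37.4 in PZT-2, far below GLB1. Of the other two genes that resemble GLB1 and had a value, GLB1L did not pass (log2 FC 0.26, adjusted p = 0.250), and GLB1L2 was lower, with 230 and 183 normalized counts in PANC-1 and 125 and 103 in PZT-2 (log2 FC -0.85, adjusted p = 0.0124, and 0.0847 with PZT-2 replicate 2 left out).

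Among 7 hydrolases of glycosaminoglycan breakdown, IDS, ARSB and GALNS were called lower, none was called higher and 4 did not pass. All 3 are sulfatases, and of the 5 sulfatases among the 33 genes 3 were lower, 0 higher and 2 (ARSA and SGSH) did not pass. IDS, the sulfatase of iduronate residues, had 3968 and 3973 normalized counts in PANC-1 and 2627 and 2725 in PZT-2. The PZT-2 libraries sat far below the PANC-1 libraries (log2 FC -0.57, SE 0.0534, adjusted p = 9.58e-04), and the call held under all 15 alternatives. IDS lies on chromosome X, whose 471 tested genes had a median of -0.29, so its change was 0.28 lower than that median on the log2 scale.

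ARSB, which removes sulfate from dermatan and chondroitin sulfate, had 623 and 603 normalized counts in PANC-1 and 458 and 442 in PZT-2 (log2 FC -0.45, SE 0.0771, adjusted p = 0.00756), with 0.0606 with PZT-2 replicate 2 left out and 0.0628 by its most abundant transcript. GALNS, the sulfatase of galactose and N-acetylgalactosamine residues, had 1627 and 1612 in PANC-1 and 1373 and 1338 in PZT-2 (log2 FC -0.26, SE 0.0581, adjusted p = 0.0196). The groups of both genes did not overlap, though the adjusted p of GALNS rose to 0.106 with PZT-2 replicate 1 left out and to 0.159 with PZT-2 replicate 2 left out. IDUA, the α-iduronidase, had 123 and 110.2 normalized counts in PANC-1 and 163 and 151 in PZT-2, which did not pass (log2 FC 0.44, SE 0.138, adjusted p = 0.0579) although the groups did not overlap. GUSB, the β-glucuronidase, NAGLU, which removes terminal N-acetylglucosamine, and SGSH, the heparan N-sulfatase, had log2 FCs of -0.07, 0.10 and -0.16 with adjusted p of 0.497, 0.445 and 0.223.

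Of 5 glycosidases of glycogen and glycoproteins, GAA was called higher, AGA was called lower and 3 did not pass. GAA, the only lysosomal enzyme that degrades glycogen, had 377 and 335 normalized counts in PANC-1 and 666 and 656 in PZT-2. The PZT-2 libraries were nearly equal and both well above PANC-1, a 1.86-fold higher mean (log2 FC 0.90, SE 0.089, adjusted p = 0.00114), under all 15 alternatives. The median of its chromosome, 17, was 0.0065. Its promoter holds 2 of the palindromes printed above.

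AGA, which cleaves asparagine from N-linked sugars, had 129 and 103 normalized counts in PANC-1 and 45.3 and 21.8 in PZT-2. It had the largest fold difference of the 33 genes and the fewest counts behind it in PZT-2 (log2 FC -1.79, SE 0.329, adjusted p = 0.00938). The PZT-2 libraries differed by more than those of PANC-1 in relative terms. AGA had only 1 transcript, and in the edgeR fit on the most abundant transcript of every gene its adjusted p was 0.0544. With PZT-2 replicate 1 left out its log2 FC was -2.41, and with PZT-2 replicate 2 left out -1.35. FUCA1, the α-fucosidase, fell short of the threshold with 317 and 314 in PANC-1 and 269.8 and 240.3 in PZT-2 (log2 FC -0.31, adjusted p = 0.0713). The mannosidases MAN2B1 and MANBA had log2 FCs of 0.24 and 0.24 with adjusted p of 0.116 and 0.147, and for each the lower PZT-2 library exceeded the higher PANC-1 library.

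Of the lipase LIPA, the palmitoyl thioesterase PPT1 and the tripeptidyl peptidase TPP1, LIPA and TPP1 were called lower and PPT1 did not pass. LIPA, the acid lipase that frees cholesterol and fatty acids from the esters of lipoproteins, had 1659 and 1632 normalized counts in PANC-1 and 934 and 896 in PZT-2. The libraries of each line were close to each other and far from those of the other line, and the mean fell by 44.4% (log2 FC -0.85, SE 0.0612, adjusted p = 4.42e-04). TPP1 had 3570.4 and 3215 in PANC-1 and 2852 and 2699 in PZT-2 (log2 FC -0.29, adjusted p = 0.0249), with 0.0880 with PZT-2 replicate 1 left out, 0.172 with PZT-2 replicate 2 left out and 0.0508 with limma-trend on log2(TPM + 1). PPT1 had 3365 and 3244 in PANC-1 and 3596 and 3601 in PZT-2, which did not pass (log2 FC 0.12, adjusted p = 0.133) but did with limma-trend on log2(TPM + 1), at an adjusted p of 0.0360.

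LIPA was quantified as 2 transcripts. NM_001127605 had 955 and 656 normalized counts in PANC-1 and 287 and 213 in PZT-2, and its share of the gene was 57.6% and 40.2% in PANC-1 and 30.7% and 23.7% in PZT-2. NM_000235 had 703 and 976 in PANC-1 and 647 and 683 in PZT-2. The log2 FCs were -1.69 and -0.34, and in edgeR neither passed among the 30403 transcripts (adjusted p = 0.104 and 0.486), and the first passed with DESeq2 (adjusted p = 1.43e-08). The gene's call therefore rests on the sum: by its most abundant transcript alone the adjusted p of LIPA was 0.258. The split of reads between overlapping transcripts is an estimate and varied between PANC-1 libraries more than the gene's total did.

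Of the cholesterol carriers, both were called lower. NPC2, the soluble protein that picks up cholesterol inside the lysosome, had 1096 and 1019 normalized counts in PANC-1 and 672 and 631 in PZT-2. Its groups were far apart (log2 FC -0.70, SE 0.0754, adjusted p = 0.00149), and the call held under all 15 alternatives. NPC1, the membrane protein that receives it, had 1821 and 1627.5 in PANC-1 and 1266 and 1248 in PZT-2 (log2 FC -0.45, SE 0.0733, adjusted p = 0.00594, and 0.0584 with PZT-2 replicate 2 left out). LIPA, NPC2 and NPC1, which act in sequence on cholesterol esters and free cholesterol, fell by 44.4%, fell by 38.3% and fell by 27.0% in mean.

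Of 6 membrane proteins, SCARB2 was called higher, CLN3 and LAMP2 were called lower, and LAMP1, CD63 and MCOLN1 did not pass. SCARB2, the receptor that carries glucocerebrosidase to the lysosome, had 1284 and 1379 normalized counts in PANC-1 and 1662 and 1746 in PZT-2 (log2 FC 0.36, SE 0.0667, adjusted p = 0.010). The groups did not overlap, and the adjusted p was 0.0510 with PZT-2 replicate 1 left out and 0.0933 with PZT-2 replicate 2 left out. CLN3, whose loss causes juvenile neuronal ceroid lipofuscinosis, had 966 and 915 in PANC-1 and 704 and 645 in PZT-2 (log2 FC -0.48, SE 0.0769, adjusted p = 0.00582, 0.0549 with PZT-2 replicate 2 left out and 0.0907 by its most abundant transcript).

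The abundant LAMP proteins line the inside of the lysosomal membrane, and the pair differed. LAMP1 had 4815 and 4507.5 normalized counts in PANC-1 and 4742 and 4634 in PZT-2, with the PZT-2 values inside the range of PANC-1 (log2 FC 0.0086, SE 0.0561, adjusted p = 0.932). LAMP2 had 3605 and 3761 in PANC-1 and 2989 and 2977 in PZT-2 (log2 FC -0.30, SE 0.0540, adjusted p = 0.00821), with 0.0725 with PZT-2 replicate 1 left out and 0.0820 with PZT-2 replicate 2 left out. LAMP2 lies on chromosome X, and its change was 0.0155 lower than that chromosome's median on the log2 scale. Its transcripts NM_013995 (LAMP2B) and NM_002294 (LAMP2A, the receptor of chaperone-mediated autophagy) kept similar shares, LAMP2B being 81.7% ± 0.942 in PANC-1 and 83.4% ± 0.533 in PZT-2 (SD, n = 2). GLA, the remaining member on chromosome X, had 1005 and 1119.6 in PANC-1 and 1026 and 1157 in PZT-2 and lay 0.33 above the chromosome's median. CD63 had a log2 FC of -0.10 (adjusted p = 0.339) and the calcium channel MCOLN1 of -0.30 (adjusted p = 0.0852).

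TFEB, the transcription factor that raises many of these genes when the lysosome is stressed or nutrients are short, had 86.6 and 128 normalized counts in PANC-1 and 98.7 and 110.8 in PZT-2. The PZT-2 values lay between those of PANC-1 (log2 FC -0.05, SE 0.216, adjusted p = 0.896). Its paralogs TFE3 and MITF did not pass either, with log2 FCs of 0.12 (adjusted p = 0.318) and 0.44 (adjusted p = 0.267). The RNA levels say nothing of where these factors are in the cell, by which their activity is largely set.

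**Figure D2:**
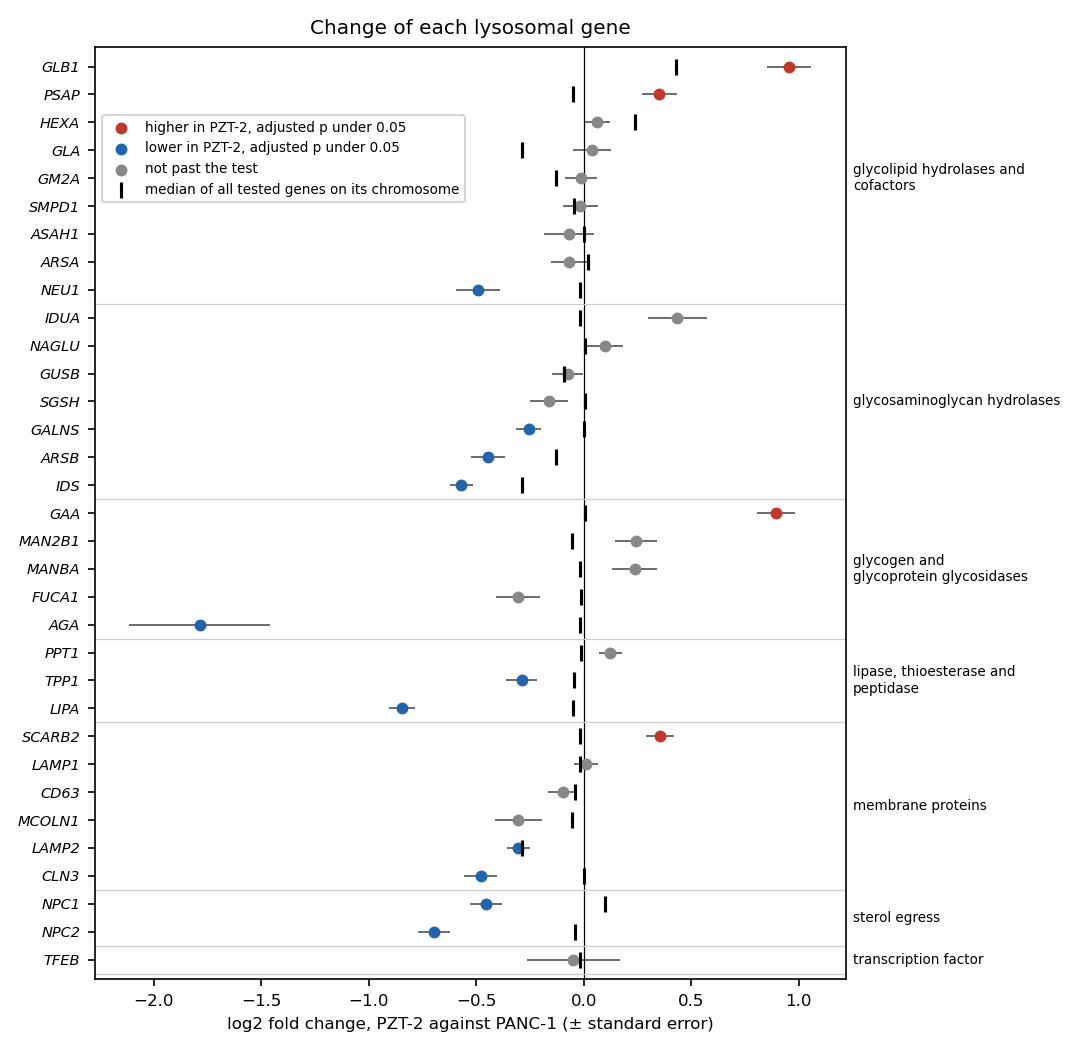
The log2 fold change of PZT-2 against PANC-1 with its standard error is plotted for the 33 lysosomal genes, grouped by role, with genes called higher in red, lower in blue and not past the test in grey. Black ticks give the median of all tested genes on the same chromosome, which is 0.43 for GLB1, 0.24 for HEXA and -0.29 for GLA, IDS and LAMP2.

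At the level of single transcripts, 0 of the 79 tested transcripts of these genes were called in edgeR, where 45 of all 30403 transcripts (0.148%) were, and 23 had an unadjusted p under 0.05, as did 18.5% of all transcripts. DESeq2 called 22 of them and 14.5% of all transcripts, edgeR with at least 10 counts in all 4 libraries 6 and 5.85%, and limma-trend on log2(TPM + 1) 2 and 1.14%. The 6 were GLB1 NM_000404, PSAP NM_001042466, IDS NM_000202, LIPA NM_001127605, NPC1 NM_000271 and NPC2 NM_006432. GLB1 NM_000404, its most abundant transcript, had 276 and 337 normalized counts in PANC-1 and 655 and 637 in PZT-2, and NM_001079811 had 241 and 100.3 in PANC-1 and 314 and 302 in PZT-2. A protein-coding gene overlaps 11 of the 33 genes on the opposite strand in GENCODE 29, LIPA, NPC1, NPC2, SCARB2, CLN3 and GALNS among the called ones. The library kit marks strand, but whether the quantification used it is not given in the sources used here. IDS, GUSB, GM2A and FUCA1 have annotated pseudogene copies, with which reads may be shared.

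The lysosomal genes outside the 33 were counted in 5 lists, of which 125 of 132 genes were tested. In PZT-2, 23 were called higher and 18 lower (32.8% together), with a median log2 FC of 0.02. This was 18.4% higher and 14.4% lower, close to the 14.7% and 13.7% of all genes. Without PZT-2 replicate 2 the counts were 8 higher and 5 lower, and with PZT-2 replicate 1 left out they were 12 higher and 8 lower. Of 31 other hydrolases and cofactors, 7 were higher (22.6%) and 2 lower (6.45%). Both counts fell with either PZT-2 library left out, as did those of all genes, and both also shifted with either PANC-1 library left out. HYAL2, a hyaluronidase, rose from 796 ± 16.0 to 1286 ± 26.9 normalized counts (SD, n = 2, log2 FC 0.69, adjusted p = 8.76e-04) and lies on chromosome 3. EPDR1 had a log2 FC of 0.61 and the lysosomal phospholipase PLA2G15 of 0.47 (adjusted p = 0.0110). With PZT-2 replicate 2 left out PLA2G15 had a log2 FC of 0.46 and did not pass. By the most abundant transcript alone HYAL2, EPDR1 and PLA2G15 did not pass in edgeR (adjusted p = 0.0648, 0.126 and 0.122).

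The vacuolar ATPase, the proton pump that acidifies the lysosome, had 4 of 21 subunits higher and 4 lower. This was 19% each, against 14.7% and 13.7% of all genes. Both counts fell with either PZT-2 library left out, as did those of all genes. The lower count also fell with either PANC-1 library left out. The accessory subunit ATP6AP1, on chromosome X, had 3812 and 3662 normalized counts in PANC-1 and 2600.1 and 2610 in PZT-2 (log2 FC -0.52, adjusted p = 0.00133). ATP6V1G1 and ATP6V0B were higher by 0.43 and 0.29 on the log2 scale and ATP6V0D1 fell by 0.27, with adjusted p of 0.0135, 0.0360 and 0.0292 that became 0.0895, 0.228 and 0.118 with PZT-2 replicate 2 left out. Of 22 genes for sorting and activating the enzymes, 5 were higher (22.7%) and 2 lower (9.09%), against 14.7% and 13.7% of all genes. The number called lower fell with either PZT-2 library left out and rose with PANC-1 replicate 1 left out. SUMF1, which activates every sulfatase by modifying its active site, had 272 and 264 in PANC-1 and 421 and 442 in PZT-2 (log2 FC 0.69, adjusted p = 0.00285) and lies on chromosome 3. Its paralog SUMF2 had a log2 FC of -0.49 (adjusted p = 0.00671, and 0.0533 with PZT-2 replicate 2 left out). NAGPA, which uncovers the mannose 6-phosphate tag, and GGA2, a sorting adaptor, rose by 0.58 and 0.51 on the log2 scale.

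Of 26 other membrane proteins and transporters, 6 were higher (23.1%) and 3 lower (11.5%), against 14.7% and 13.7% of all genes. Both counts fell with either PZT-2 library left out, as did those of all genes. LAMP3, on chromosome 3, had 75.4 and 19.9 normalized counts in PANC-1 and 357 and 350.1 in PZT-2, a log2 FC of 2.96 (SE 0.414, adjusted p = 0.00361) over PANC-1 libraries that differed widely from each other, and the log2 FC was 4.14 with PANC-1 replicate 1 left out and 2.22 with PANC-1 replicate 2 left out. The transporters ABCA2 and SLC17A5, the sialic acid exporter, had log2 FCs of 0.52 and 0.47. The amino acid exporter SLC36A1 had a log2 FC of -0.43 (adjusted p = 0.0205). With PZT-2 replicate 2 left out SLC17A5 had a log2 FC of 0.41 and did not pass. With PZT-2 replicate 1 left out SLC36A1 had a log2 FC of -0.37 and did not pass. Of 25 relatives of TFEB and genes of mTORC1 control at the lysosome, 1 was higher (4%) and 7 lower (28%), against 14.7% and 13.7% of all genes. Both counts fell with either PZT-2 library left out, as did those of all genes. The higher count rose with PANC-1 replicate 1 left out. RRAGD, a Rag GTPase that is itself a known TFEB target, had 390.5 and 344 in PANC-1 and 46.3 and 27.7 in PZT-2, so that the mean fell by 89.9% (log2 FC -3.31, SE 0.211, adjusted p = 3.04e-04). FNIP2, a partner of folliculin, LAMTOR1, the anchor of the Ragulator complex, and MLST8, an mTOR subunit, had log2 FCs of -1.011, -0.63 and -0.47.

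The spread between the 2 libraries of a line limits all of these comparisons. An exact two-sided permutation test of 2 against 2 libraries cannot go below p = 0.333, so every call rests on the spread that edgeR shares across genes, and the p-values measure the spread between these libraries. The study calls them biological replicates, and the labels do not say whether the 2 libraries of a line came from separate cultures.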

How the data were processed

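Poly(A)-selected, strand-marked libraries of PANC-1 (n = 2) and PZT-2 (n = 2) were trimmed with Trim Galore 0.4.1 and quantified against RefSeq transcripts with kallisto 0.43.0 by the authors, whose processing notes name hg19. The deposited estimated counts were exported from sleuth 0.29.0 and carried 1 factor per library (0.935 to 1.16), which was recovered from single-transcript genes and undone. The share of low values within 0.01 of a whole number rose from 0.915% to 2.39% as deposited to 41.1% to 42.3%. The authors' deposited TPM signal was not used: TPM was recomputed from the estimated counts and effective lengths. Columns of the authors' own comparison (effect sizes, p-values and q-values) were not used. Of 31077 transcripts, 27049 were named by the table, 3925 by accession through a gene table, and 103 had no name (0.0466% of counts). Counts were summed per gene and rounded, filtered at 5 counts in 2 libraries, scaled by TMM and tested with edgeR 4.0.16 (quasi-likelihood, R 4.3.3) with Benjamini-Hochberg adjustment at 0.05. Alternatives, 15 in all, included DESeq2 1.42.0, limma 3.58.1, other filters and scalings, the most abundant transcript alone, a replicate block and each library left out. The steps were tested on simulated data. All 33 genes, the 4 called genes of each other list with the largest change (mean normalized count of at least 100, no overlap), and preset partners were named, except 1 that is not reported here. The genes, lists and tests were chosen with earlier results of these data known.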

Additional observations from a re-analysis of the deposited data

How the results depend on the processing

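Gene calls and their counts were recomputed under 15 alternatives and transcript counts under 9 of these, while promoter, chromosome, neighbour and marker values were not recomputed. Of the 15 calls among the 33 genes, GLB1, GAA, NPC2 and IDS held in all 15, as did 10 of the 22 named calls outside the 33. The count of all called genes changed most without a PZT-2 library and by the most abundant transcript alone. Without a PZT-2 library, only the PANC-1 pair gives a spread between replicates. Set against counting noise, that spread had a chi-square per degree of freedom of 5.9 in PANC-1 and 3.38 in PZT-2. The cause of the changed counts was not tested. When libraries were left out one at a time, the count of all called genes ran from 1851 to 4452, of the 33 genes called higher from 2 to 4 and called lower from 4 to 11, and of the other lysosomal genes called higher from 8 to 24 and called lower from 5 to 20. By the most abundant transcript alone these were 2128 for all genes, 3 higher and 5 lower among the 33, and 13 higher and 8 lower among the others. Among transcripts of the 33 genes, DESeq2 called 22, the filter of at least 10 counts in all 4 libraries 6 and limma-trend on log2(TPM + 1) 2, against 0 in edgeR. With limma-trend on log2(TPM + 1) all genes split into 2370 higher and 1446 lower (62.1% higher, against 51.9%), and the 33 into 6 higher and 10 lower, with IDUA and PPT1 added to the higher ones.

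Of the 33 genes, 8 changed sign under some alternative, none of them called. With limma-trend at pseudocounts of 1 and 0.1, SMPD1 became 0.0726 and 0.0747, GM2A 0.0388 and 0.0395, and TFEB 0.0303 and 0.0383. SMPD1 became 0.0170 with length-scaled counts and 0.0236 by its most abundant transcript, which gave 0.210 for SGSH. Over the libraries left out one at a time, the log2 fold change ran from -0.0692 to 0.0334 for SMPD1, from -0.0802 to 0.0499 for GM2A, from -0.296 to 0.266 for TFEB, from -0.0518 to 0.122 for GLA, from -0.0456 to 0.0535 for LAMP1, from -0.166 to 0.0174 for ARSA and from -0.164 to 0.0331 for ASAH1.

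The libraries share replicate numbers, which nothing in the labels says mark a shared day, and the deviations of same-numbered libraries correlated at -0.0207. With a replicate block 3754 genes were called, and 4 of the 33 were higher and 11 lower. The vacuolar ATPase subunits were then 3 higher and 1 lower, against 4 and 4, and the other hydrolases 6 higher and 1 lower, against 7 and 2. Of the named genes outside the 33, ATP6V0B and ATP6V0D1 no longer passed with the block (adjusted p = 0.0609 and 0.0577).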

Other observations

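Transcripts of 1 gene could differ in their values between the lines. SGSH NM_000199 had 227 and 181 normalized counts in PANC-1 and 116 and 69.2 in PZT-2, while SGSH NM_001352922 had 187 and 150.0 against 164 and 187. IDUA NM_000203 made up 64.8% and 68.9% of the gene in PANC-1 and 95.7% and 82.2% in PZT-2. None of these transcripts passed the test among all transcripts in edgeR, and SGSH NM_000199 passed with DESeq2 (adjusted p = 0.0293). Of the PSAP transcripts, NM_001042466 was 4.49% and 4.47% of the gene in PANC-1 and 6.34% and 6.80% in PZT-2, with values that did not overlap between the lines, and its log2 fold change of 0.90 was the largest of the 3.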
